A study of Mus musculus with 20 samples.

Results

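The genes of excitation-contraction coupling and calcium handling were followed in the quadriceps of old mice given a single injection of a stem cell secretome or of saline. The 10 genes were chosen by symbol, through the identifiers of the count table, out of 55416 genes listed there, and all 10 passed the filter on low counts. Cacna1s encodes the voltage sensor, Ryr1 the release channel, Jph1 and Jph2 the junctional tethers, Casq1 and Casq2 the calcium stores, Atp2a1 and Atp2a2 the pumps, Sln a pump inhibitor and Pvalb a soluble calcium buffer.

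The mice were wild type (WT) males of strain C57BL/6J, 26 to 28 months old, and were fasted for 4 h. Right quadriceps muscles were injected once with 50 uL of saline or of a cell-free product from the culture medium of partially differentiated pluripotent human embryonic stem cells, and were taken 3 h later. There were 10 muscles per treatment, each sequenced as 1 library of total RNA. Saline muscles were libraries 1 to 10 and secretome muscles libraries 11 to 20, so that replicate numbers within a treatment follow the library numbers. Every muscle carried the strong fast-fibre signal of a mouse quadriceps: the summed level of 7 fast-fibre markers was 42165 to 87758 CPM (counts scaled to library size, with TMM factors for composition), whereas the summed level of 6 slow-fibre markers ran from 1.07 to 436 CPM.

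In a skeletal muscle fibre, an action potential enters the T-tubules and moves the voltage sensor, which opens the release channel of the sarcoplasmic reticulum by direct contact. Calcium then leaves the reticulum, where calsequestrin had bound it, and is returned there by the SERCA pumps. Fast fibres pair the pump Atp2a1 and the store Casq1 with abundant parvalbumin, while Atp2a2 and Casq2 are found in slow and cardiac fibres. The levels of these isoforms in a sample can therefore vary with its fibre makeup, which was not measured here.

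The upstream sequences of 4 members are shown as a description. These members were picked because Ryr1 and Atp2a1 shared a pattern across the libraries, and the store genes Casq1 and Casq2 lay far apart in level. Whether the sequences relate to these levels was not tested. Of the 10 genes, 7 had an entry in the RefSeq promoter table (build GRCm38.p6). The 250 bases before the annotated start are given 5′ to 3′ on the strand of the gene, with capitals for E-box letters (CANNTG, a motif read the same on both strands, bound by myogenic factors of the MyoD family among others). Ryr1 lies at chr7:29125152-29125401 (minus strand), Atp2a1 at chr7:126463074-126463323 (minus), Casq1 at chr1:172219896-172220145 (minus) and Casq2 at chr3:102086165-102086414 (plus).
Ryr1: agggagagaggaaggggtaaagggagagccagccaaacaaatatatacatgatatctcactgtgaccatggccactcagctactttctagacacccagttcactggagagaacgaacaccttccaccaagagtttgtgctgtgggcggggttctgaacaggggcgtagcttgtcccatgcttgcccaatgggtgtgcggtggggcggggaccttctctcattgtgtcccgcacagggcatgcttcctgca
Atp2a1: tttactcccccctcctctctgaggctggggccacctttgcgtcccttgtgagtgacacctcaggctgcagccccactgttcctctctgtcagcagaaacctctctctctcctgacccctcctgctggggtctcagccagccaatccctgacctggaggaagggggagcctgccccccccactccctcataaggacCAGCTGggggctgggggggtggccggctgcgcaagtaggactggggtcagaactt
Casq1: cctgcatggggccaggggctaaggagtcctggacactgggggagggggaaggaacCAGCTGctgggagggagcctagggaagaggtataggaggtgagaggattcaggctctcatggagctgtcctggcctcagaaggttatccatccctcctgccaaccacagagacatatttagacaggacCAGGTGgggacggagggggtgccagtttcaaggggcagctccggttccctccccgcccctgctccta
Casq2: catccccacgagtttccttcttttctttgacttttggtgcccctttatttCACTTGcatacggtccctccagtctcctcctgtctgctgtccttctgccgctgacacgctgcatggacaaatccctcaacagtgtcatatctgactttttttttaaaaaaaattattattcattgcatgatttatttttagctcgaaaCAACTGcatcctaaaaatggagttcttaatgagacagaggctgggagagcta
The Atp2a1 window held 1 E-box, 55 to 50 bases before the start. Casq1 and Casq2 each held 2, at 195 to 190 and 67 to 62 bases before the start in Casq1 and at 200 to 195 and 52 to 47 in Casq2. The Ryr1 window held none. Of 32851 promoter windows of the same length, 66.2% held an E-box. The MCAT letters CATTCC, searched on both strands, were in 12.6% of all windows and the TATA box letters TATAAA, searched on the strand of the gene, in 7.59%, and neither was in any of the 4 windows. GC content was 54.8% for Ryr1, 64% for Atp2a1, 61.6% for Casq1 and 41.6% for Casq2. A match of letters describes the sequence and does not show that a factor binds there.

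Library depth was 13286983 to 22987237 counts, and the 10 genes together took 3.74% to 6.09% of a library. The libraries fell into 3 ranges by number: the share of counts on Ttn, the giant spring protein of the sarcomere, was 7.02% to 11.03% in libraries 1 to 5, 16.4% to 21.1% in libraries 6 to 15 and 14.2% to 14.7% in libraries 16 to 20. Libraries 1 to 5 were all saline and libraries 16 to 20 all secretome, so treatment and library range cannot be told apart there. Comparisons are therefore given over all 20 libraries and again within libraries 6 to 15, which hold 5 muscles of each treatment. Libraries 2 and 3 (saline) also stood apart for Pvalb, as described with that gene.

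No member passed the 5% false discovery rate between secretome and saline, by edgeR or by DESeq2. With edgeR's quasi-likelihood test over all 20 libraries, 1 of 14471 genes tested (0.00691%), Plxnb2, passed the rate and 0 of the 10 members did. DESeq2, run without the filter on low counts, called 216 of the 55416 genes listed, again with 0 of the 10 members. At an unadjusted p under 0.05, 15.7% of all genes and 1 of the 10 members (Pvalb) were found. For 0.0484% of all genes, and for 0 members, the 2 treatments did not overlap. The median log2 fold change of the members was 0.07, with 6 higher and 4 lower, beside -0.03 for all genes tested.

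Within libraries 6 to 15, 0 of 14469 genes (0%) passed the false discovery rate with edgeR. With DESeq2, 37 of the 55416 genes listed passed, none of them a member. An unadjusted p under 0.05 was reached by 9.95% of all genes and by 1 member (Atp2a2), and the treatments did not overlap for 1.91% of all genes and 0 members. The members' median log2 fold change was -0.09 there, with 2 higher and 8 lower, beside -0.01 for all genes.

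**Figure D1:**
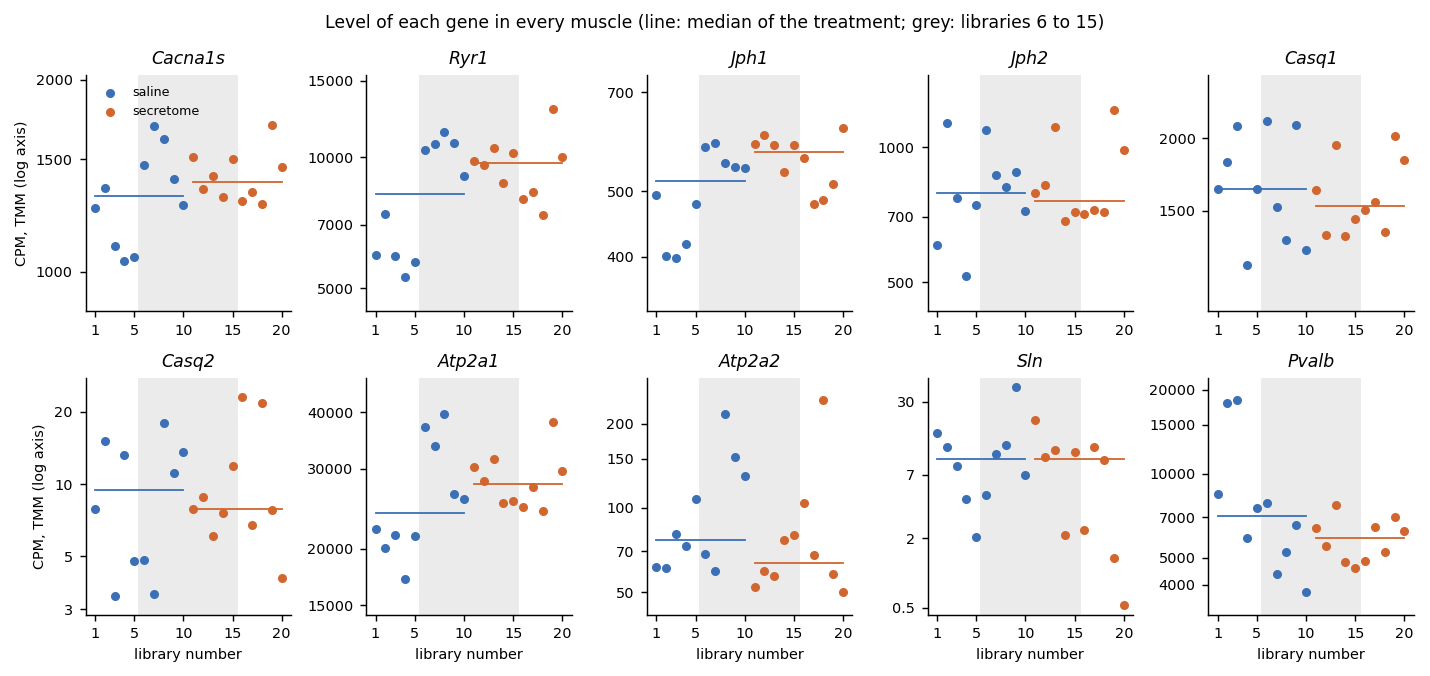
Level of each of the 10 genes (y, CPM on a log axis) in each muscle by library number (x), blue for saline and orange for secretome, with a line at the median of each treatment and libraries 6 to 15 shaded. Ryr1 was 5310 to 7423 CPM in libraries 1 to 5 and at least 7353 CPM in every other library, and Pvalb stood at 17855 and 18380 CPM in libraries 2 and 3.

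The voltage sensor and the release channel did not differ by treatment beyond the spread between muscles. Cacna1s, the pore and voltage-sensing subunit of the T-tubule calcium channel, had a lowest, median and highest level of 1041, 1313 and 1693 CPM in saline and of 1280, 1382 and 1698 CPM in secretome. The groups overlapped across most of their range, and the log2 fold change was 0.09 ± 0.098 (SE, n = 10 per treatment; edgeR adjusted p = 0.662). Ryr1, through which calcium leaves the reticulum, was at 5310, 8236 and 11440 CPM in saline and at 7353, 9710 and 12928 CPM in secretome. Of the 10 secretome muscles, 8 lay above the saline median. The log2 fold change of Ryr1 was 0.21 ± 0.154 (adjusted p = 0.517).

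The saline values of Ryr1 fell into 2 sets that followed the library range. Libraries 1 to 5 held 5950, 7423, 5938, 5310 and 5762 CPM, and libraries 6 to 10 held 10385, 10747, 11440, 10808 and 9049 CPM. The lowest muscle of the second set exceeded the highest of the first, although both sets were saline. The secretome muscles of libraries 11 to 15 were at 9821, 9599, 10536, 8739 and 10240 CPM and those of libraries 16 to 20 at 8035, 8340, 7353, 12928 and 10038 CPM. The log2 fold change within libraries 6 to 15 was -0.09 ± 0.107 (adjusted p = 0.774), and all 5 secretome muscles lay below the saline median.

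A contrast of libraries 16 to 20 with libraries 1 to 5, added after the values were seen, was the only contrast given here in which a member passed the false discovery rate. Ryr1 was higher in libraries 16 to 20, by 0.62 ± 0.142 on the log2 scale (n = 5 per set, edgeR adjusted p = 0.0232), a fold of 1.54. Of all genes, 3.68% passed in that contrast. At an unadjusted p under 0.05 it found 21.2% of all genes and 5 members: Ryr1, Atp2a1, Jph1 and Cacna1s with higher and Pvalb with lower values. The 2 sets did not overlap for 4.86% of all genes and for 1 member, Atp2a1. The ranges of the Ttn share in these 2 sets did not overlap either. Myh4, a fast myosin heavy chain, was also higher in libraries 16 to 20 (log2 fold change 0.76, adjusted p = 0.0310). The other fast-fibre markers were divided and did not pass. Myh1 (0.89), Actn3 (0.34) and Tnnt3 (0.14) had higher values, and Tnni2 (-0.30), Tnnc2 (-0.22) and Mylpf (-0.02) had lower values. The fibroblast markers Pdgfra (-0.49, adjusted p = 0.0710) and Lum (-0.72, adjusted p = 0.157) and the macrophage marker Csf1r (-0.72, adjusted p = 0.0932) had lower values that did not pass. The part of these markers in the Ryr1 result was not tested.

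The junctional tethers, which hold the reticulum against the T-tubule, showed no difference that passed. Jph1 was at 398, 517 and 588 CPM (lowest, median, highest) in saline and at 478, 571 and 619 CPM in secretome, a log2 fold change of 0.15 ± 0.0898 (adjusted p = 0.408). Jph2, the form best known from heart and also present in skeletal muscle, was at 517, 792 and 1132 CPM in saline and at 684, 757 and 1208 CPM in secretome. Its log2 fold change was 0.05 ± 0.140 (adjusted p = 0.872). Jph1 varied least of the 10 genes, with a coefficient of variation of 12.7% over the 20 muscles, beside 22.4% for Jph2. The differences within libraries 6 to 15 were 0.06 ± 0.0873 for Jph1 and -0.08 ± 0.144 for Jph2.

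The calcium stores differed strongly from each other in level and not detectably between treatments. Casq1, a calsequestrin of skeletal muscle, was at 1212, 1635 and 2141 CPM in saline and at 1357, 1532 and 2015 CPM in secretome (log2 fold change -0.07 ± 0.120, adjusted p = 0.817). Casq2, a calsequestrin found in heart and slow fibres, was at 3.42, 9.48 and 17.96 CPM in saline and at 4.04, 7.85 and 23.2 CPM in secretome. Its log2 fold change was 0.16 ± 0.354 (adjusted p = 0.854), with a wider error than that of Casq1. The highest Casq2 values, 23.2 and 21.8 CPM, were in secretome libraries 16 and 18, and the lowest, 3.42 and 3.46 CPM, in saline libraries 3 and 7.

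The fast pump Atp2a1 followed the same library ranges as Ryr1. It was at 17177, 23957 and 39715 CPM in saline and at 24260, 27762 and 37995 CPM in secretome, and all 10 secretome muscles exceeded the saline median. The log2 fold change over all libraries was nevertheless 0.10 ± 0.148 (adjusted p = 0.758), since 5 saline muscles, those of libraries 6 to 10, reached 25795 to 39715 CPM. It was 0.05 without saline library 4 and 0.19 without saline library 8. Libraries 1 to 5 held 22119, 20053, 21467, 17177 and 21345 CPM. The direction turned within libraries 6 to 15: the log2 fold change was -0.20 ± 0.142 (adjusted p = 0.637), and all 5 secretome muscles were below the saline median. In libraries 16 to 20 against 1 to 5 it was 0.49 ± 0.150 (adjusted p = 0.0682).

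Atp2a2, a pump found in slow and cardiac fibres, gave the only unadjusted p under 0.05 among the members within libraries 6 to 15. Saline libraries 6 to 10 held 68.4, 59.5, 217, 152 and 130 CPM, and secretome libraries 11 to 15 held 52.3, 59.3, 57.3, 76.6 and 80.2 CPM. The 3 high saline muscles exceeded every secretome muscle of this range, while the other 2 lay among them. The log2 fold change was -0.93 ± 0.326 (n = 5 per treatment, edgeR unadjusted p = 0.0159, adjusted p = 0.452), and all 5 secretome muscles lay below the saline median. The unadjusted p rose to 0.101 with voom and quality weights, where the value was -0.50, and to 0.0620 without saline library 9 (-0.85). It stayed under 0.05 in 5 of 6 alternative settings and in 9 of 10 fits with 1 muscle left out. The smallest among the settings was 0.00114 with DESeq2 (adjusted p = 0.134). Over all 20 libraries the log2 fold change was -0.25 ± 0.304 (adjusted p = 0.708), with 59.5, 77.0 and 217 CPM in saline and 49.9, 63.5 and 243 CPM in secretome. Single muscles moved that value: it was -0.59 (unadjusted p = 0.0196, adjusted p = 0.248) without library 18, the secretome muscle at 243 CPM, and -0.06 without library 8, the saline muscle at 217 CPM.

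Sln, a small membrane protein that binds the pumps and lowers their calcium uptake, was the most variable member. It was at 2.04, 9.53 and 40.2 CPM in saline and at 0.526, 9.68 and 21.0 CPM in secretome, with a coefficient of variation of 89.4% over the 20 muscles. The medians were alike and the groups overlapped, and the log2 fold change of -0.53 ± 0.554 did not pass (adjusted p = 0.659). It was -0.08 without saline library 9 and -0.80 without secretome library 11, which held 40.2 and 21.0 CPM. It was -0.42 ± 0.665 within libraries 6 to 15, and it changed sign to 0.37 when saline library 9 was left out.

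Pvalb, the cytosolic buffer that speeds relaxation of fast fibres, had the largest absolute log2 fold change of the members over all 20 libraries. It was at 3762, 7062 and 18380 CPM in saline and at 4589, 5900 and 7718 CPM in secretome, and 9 of 10 secretome muscles lay below the saline median. The log2 fold change was -0.55 ± 0.245 (edgeR unadjusted p = 0.0357, adjusted p = 0.284). Saline libraries 2 and 3 held 17855 and 18380 CPM, more than any other muscle, while the other 8 saline muscles held 3762 to 8448 CPM. With these 2 libraries left out, a choice made after their values were seen, the log2 fold change was -0.07 (adjusted p = 0.926). In the middle range, libraries 6 to 15, it was 0.08 ± 0.197 (adjusted p = 0.902). Other genes of calcium handling that stood high in libraries 2 and 3 were S100a1, a regulator of the release channel, with 167 and 158 CPM against 44.0 to 84.4 CPM in the other saline muscles, and Arln, a micropeptide that inhibits the pumps, with 68.5 and 56.6 against 11.5 to 28.6 CPM.

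**Figure D2:**
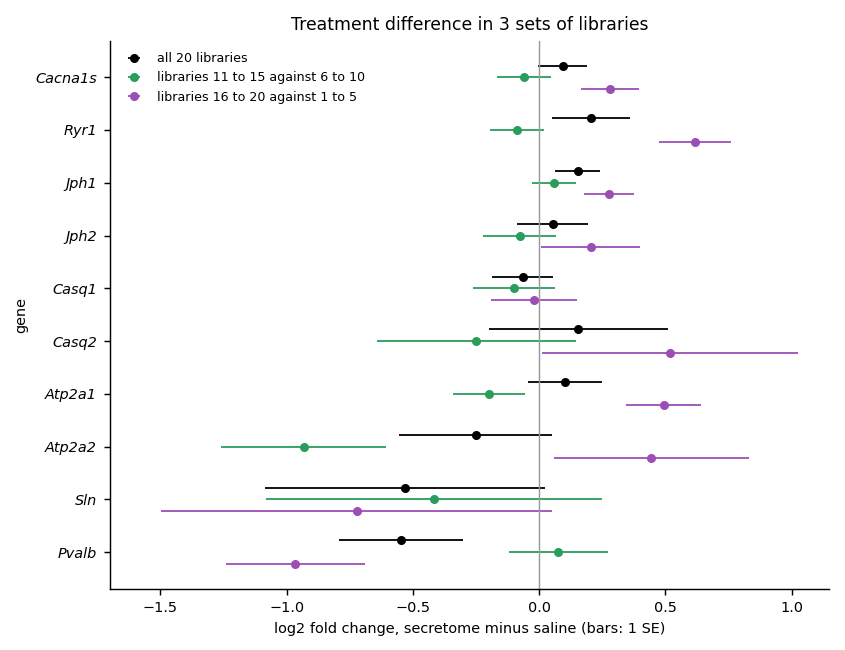
Log2 fold change of secretome against saline (x; bars are 1 SE) for each gene (y) over all 20 libraries (black), within libraries 6 to 15 (green) and for libraries 16 to 20 against 1 to 5 (purple). Ryr1 and Atp2a1 lay at -0.09 and -0.20 within libraries 6 to 15 and at 0.62 and 0.49 in the other contrast, and Pvalb at 0.08 and -0.97.

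The treatment difference in the middle library range was compared with the contrast of the highest-numbered secretome libraries with the lowest-numbered saline libraries. The fit had 4 means, 1 for each treatment in each of these 2 sets of libraries. In the outer set, treatment and library range cannot be told apart. The comparison therefore cannot show whether the treatment difference itself depended on the library range. The difference of Ryr1 between the 2 sets was -0.72 ± 0.2005 on the log2 scale (unadjusted p = 0.00172, adjusted p = 0.176), that of Atp2a1 -0.70 ± 0.212 (adjusted p = 0.203), and that of Atp2a2 -1.39 ± 0.551 (adjusted p = 0.339). For Pvalb it was 1.03 ± 0.387 (adjusted p = 0.306) and for Cacna1s -0.35 ± 0.163 (adjusted p = 0.419). These 5 members had an unadjusted p under 0.05, as had 11.1% of all genes. None of the 10 passed the false discovery rate by edgeR, which 0.0553% of all genes did.

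Compared per base of transcript, the fast-fibre forms dominated by orders of magnitude. In TPM, counts per base of the longest annotated transcript scaled to the same total in every library, Pvalb was at 27250 ± 14953 and Atp2a1 at 24404 ± 7826 in saline (SD, n = 10). These neighbours did not separate, since Pvalb exceeded Atp2a1 in 5 of 10 saline muscles. Casq1 came next at 2887 ± 636 TPM and Ryr1 at 1736 ± 593 TPM, with Casq1 above Ryr1 in 9 of 10. The length of Ryr1 differs between its longest transcript and the union of its exons, and with the latter its saline mean was 1221 TPM.

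Lower in the order, Cacna1s was at 677 ± 137 TPM and Jph2 at 617 ± 156 TPM, and the first exceeded the second in 6 of 10 saline muscles. Jph1 followed at 332 ± 64.1 TPM, below Jph2 in all 10. Atp2a2, Sln and Casq2 closed the order, with Atp2a2 at 57.5 ± 31.4 TPM, Sln at 29.1 ± 29.5 TPM and Casq2 at 11.99 ± 6.87 TPM. Atp2a2 exceeded Sln in 8 of 10 and Sln exceeded Casq2 in 7 of 10 saline muscles, so the last pair did not separate. In secretome the means ran from 26032 ± 3651 TPM for Atp2a1 and 19199 ± 3634 TPM for Pvalb to 13.2 ± 8.09 TPM for Casq2.

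Ratios within a library do not depend on its scaling and were compared for 4 pairs. The Atp2a1 to Atp2a2 ratio of counts per base had a lowest, median and highest value of 284, 408 and 925 in saline and of 163, 717 and 1070 in secretome. The treatments overlapped from 284 to 925, and secretome library 18 alone lay below that. The mean log2 ratio was 0.44 higher in secretome (two-sided permutation test, 100000 resamples, p = 0.195, adjusted over 4 ratios 0.391). The difference within libraries 6 to 15 was 0.61 (exact permutation p = 0.190, adjusted 0.698).

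The Casq1 to Casq2 ratio was at 103, 275 and 848 in saline and at 87.7, 267 and 628 in secretome, a difference of -0.23 on the log2 scale (permutation p = 0.607, adjusted 0.607). The ratio of Jph1 to Jph2, the 2 tethers, was at 0.310, 0.577 and 0.714 in saline and at 0.372, 0.619 and 0.715 in secretome (difference 0.10, permutation p = 0.520, adjusted 0.607). The Ryr1 to Cacna1s ratio, channel to voltage sensor, was at 1.92, 2.41 and 3.14 in saline and at 2.34, 2.74 and 3.10 in secretome. Its difference was 0.14 (permutation p = 0.118, adjusted 0.391), and its saline values split by library range, with 1.92 to 2.23 in libraries 1 to 5 and 2.58 to 3.14 in libraries 6 to 10. Within libraries 6 to 15 the differences of these 3 ratios were -0.04, 0.14 and -0.03 (exact permutation p = 0.944, 0.349 and 0.603), where the smallest p that 5 against 5 can give is 0.00794.

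**Figure D3:**
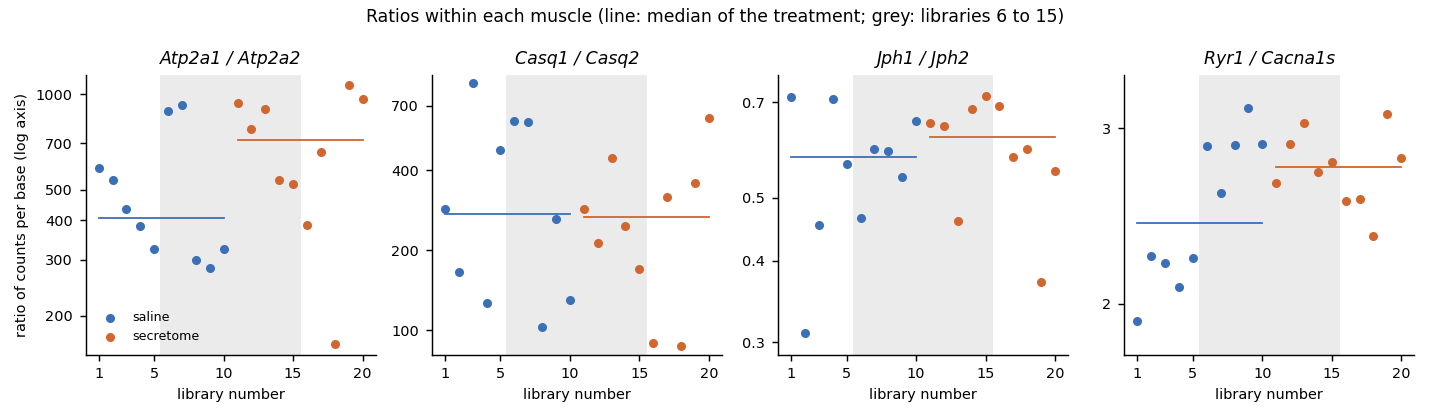
Ratio of counts per base within each muscle (y, log axis) by library number (x) for 4 gene pairs, blue for saline and orange for secretome, with a line at the median of each treatment and libraries 6 to 15 shaded. The Atp2a1 to Atp2a2 ratio spanned 163 to 1070, and the Ryr1 to Cacna1s ratio was at most 2.23 in libraries 1 to 5 and at least 2.34 in the others.

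Atp2a2 and Casq2, a pump and a store found in slow fibres, moved with slow-fibre markers from muscle to muscle. The marker value was the mean log2 CPM of Myh7, Tnnt1, Tnni1, Tnnc1, Myl2 and Myl3, the myosin, troponin and light chain genes of slow fibres, and it was correlated with each of the 10 members over the 20 muscles. For Atp2a2, Pearson's r was 0.84 (permutation p = 1e-05, the smallest that 100000 resamples can give, adjusted over 10 members 1e-04) and Spearman's rho 0.79 (permutation p = 0.00012, adjusted 0.0012). Without libraries 8 and 18, which were farthest from the median of the marker value, r was 0.73. The value within libraries 6 to 15 was 0.90 (n = 10, permutation p = 0.0003, adjusted 0.003).

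Casq2 had an r of 0.70 (permutation p = 0.00087, adjusted 0.00435) and a rho of 0.66 (p = 0.0023, adjusted 0.0115), with 0.58 without those 2 libraries and 0.83 within libraries 6 to 15 (permutation p = 0.00338, adjusted 0.0169). Casq1 ran the other way, with an r of -0.57 (permutation p = 0.00988, adjusted 0.0329) and a rho of -0.61 (p = 0.00492, adjusted 0.0164). Its r was -0.49 without libraries 8 and 18 and -0.58 within libraries 6 to 15 (permutation p = 0.0828, adjusted 0.138). For Sln r was -0.03 and rho -0.09 (permutation p = 0.902 and 0.691), and the other 6 members did not pass after adjustment, with r from -0.38 to -0.19. Without libraries 8 and 18, r was -0.52 for Atp2a1 and -0.46 for Cacna1s, and within libraries 6 to 15 it was -0.73 for Jph1 (permutation p = 0.0193, adjusted 0.0643). In a whole muscle, fewer slow fibres and less RNA per slow fibre cannot be told apart. Atp2a2 was also present where the markers were lowest. Libraries 6, 1 and 20 held 68.4, 61.4 and 49.9 CPM of it, with summed markers of 1.07, 1.81 and 1.35 CPM. Which fibres or cells this Atp2a2 RNA came from was not tested.

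The markers were also set beside the Atp2a2 difference within libraries 6 to 15. The summed slow-fibre level there was 1.07, 3.41, 418, 31.5 and 111 CPM in saline libraries 6 to 10 and 2.06, 7.51, 1.85, 35.6 and 25.4 CPM in secretome libraries 11 to 15. The 3 saline muscles with the highest Atp2a2 were also the 3 with the highest slow-fibre levels among the 5 saline muscles of this range. Secretome library 14, however, held 35.6 CPM of these markers and 76.6 CPM of Atp2a2, beside 31.5 and 152 CPM in saline library 9. With the marker mean as a covariate, added after the values were seen, the log2 fold change of Atp2a2 was -0.45 ± 0.148 within libraries 6 to 15 (edgeR adjusted p = 0.392) and -0.16 ± 0.156 over all 20 (adjusted p = 0.614). The unadjusted p of the first of these was 0.0097, beside 0.0159 without the covariate. The part of slow fibres in the Atp2a2 difference was not tested. All 6 slow-fibre markers had lower values in secretome within libraries 6 to 15, with log2 fold changes from -3.57 for Myh7 to -2.13 for Myl3, and Tnni1 and Tnnc1 had an unadjusted p under 0.05 (0.0312 and 0.0332, adjusted p = 0.473 and 0.474). Over all 20 libraries 0 of the 6 had one by edgeR. Of the 5 cardiac markers 2 were tested, Myh6 and Tnnt2, and the list summed to 0.234 to 7.48 CPM.

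**Figure D4:**
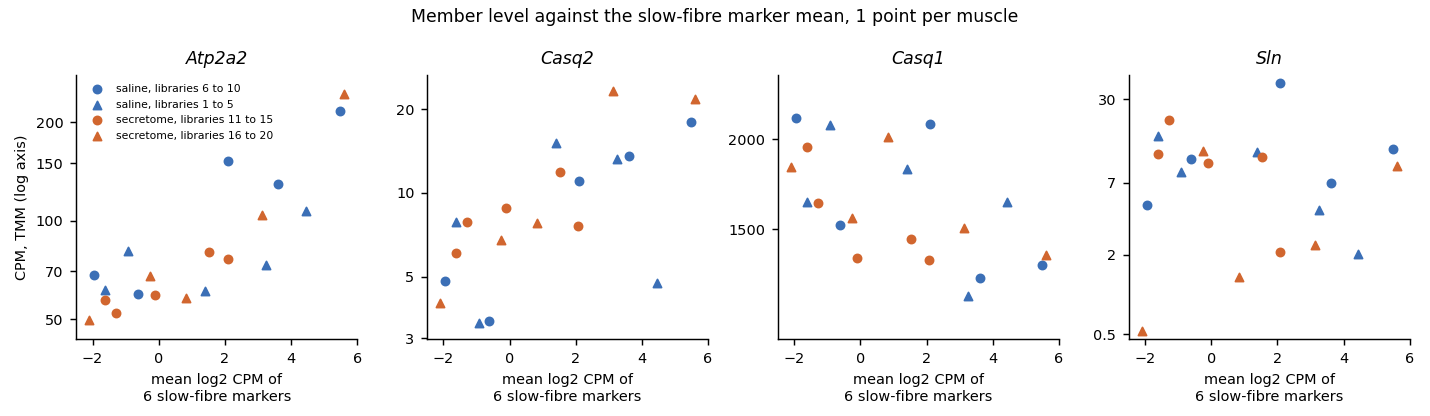
Level of Atp2a2, Casq2, Casq1 and Sln (y, CPM on a log axis) against the mean log2 CPM of 6 slow-fibre markers (x), 1 point per muscle, blue for saline and orange for secretome, circles for libraries 6 to 15 and triangles for the rest. Atp2a2 (r = 0.84) and Casq2 (r = 0.70) were higher where the markers were higher, Casq1 (r = -0.57) was lower, and Sln (r = -0.03) showed no such slope.

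Levels were also compared across muscles after the mean of each treatment in each set of libraries was removed, over 20 muscles and 7354 genes. These correlations share library, depth and composition and are descriptive. Cacna1s was most like Ryr1 (r = 0.84) and then Rnf10 (0.82), while Ryr1 was most like Rnf10 (0.91) and Wdtc1 (0.89). Jph2 was most like Ccdc85c and Cbx6 (both 0.94) and Jph1 like Mia3 and Tarsl2 (both 0.81). The correlation of Jph1 with Jph2 was 0.06, whereas that of Ryr1 with Jph2 was 0.79.

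Casq1 was most like Tnnc2 (0.92), the fast-fibre troponin C, and Rxrb (0.91), and Casq2 like Pde8a (0.83) and Bdh1 (0.80). Atp2a1 was most like Eepd1 (0.91) and Agt (0.87). Atp2a2 was most like Myh7 (0.87), the slow myosin heavy chain, and Tpm3 (0.84), the slow tropomyosin. Sln was most like Atxn10 (0.95) and Tmbim1 (0.89). Pvalb was most like Gm26461 (0.95) and Rn7s6 (0.92).

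Around the 10 members, 60 further genes of the pathway were listed by role, of which 58 were tested over all libraries. By edgeR 0 of them passed the false discovery rate. DESeq2 called 2, Ppp3cb and Atp2b1, beside 216 of the 55416 genes listed. At an edgeR unadjusted p under 0.05, 7 of the 58 had higher and 4 lower values. Their median log2 fold change was 0.09, with 38 higher and 20 lower. Over all genes tested, 6.52% had higher and 9.21% lower values at that level, 44.1% had a positive log2 fold change and the median was -0.03. For libraries 6 to 15, 57 were tested, with 29 higher, 28 lower and a median of 0.00. At an unadjusted p under 0.05, 4 were higher (Trdn, Micu3, Ppp3cb and Ppp3r1) and 0 lower. Of all genes, 5.02% were higher and 4.92% lower at that level there. Without saline libraries 2 and 3, 6 had higher and 0 lower values at that level among 59 tested, beside 8.40% of all genes in either direction.

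The smallest p among genes with higher values belonged to calcium-dependent signalling and extrusion. Ppp3cb, a catalytic subunit of the calcium-activated phosphatase calcineurin, was at 169, 236 and 267 CPM in saline and at 258, 283 and 329 CPM in secretome (log2 fold change 0.38 ± 0.0928, adjusted p = 0.109). Atp2b1, a calcium pump of the surface membrane, was at 69.1, 91.8 and 103 CPM and at 95.8, 112 and 121 CPM (0.28 ± 0.0773, adjusted p = 0.136). Ppp3r1, the regulatory subunit of calcineurin, was at 54.2, 99.7 and 122 CPM and at 113, 121 and 145 CPM (0.37 ± 0.110, adjusted p = 0.153). For these 3 genes every secretome muscle lay above the saline median, the groups overlapped, and saline libraries 2 and 3 held the lowest or near-lowest values. Without those 2 libraries the differences were 0.31, 0.22 and 0.27, and within libraries 6 to 15 they were 0.34, 0.18 and 0.34 (adjusted p = 0.450, 0.519 and 0.418).

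Among genes with lower values, Arln was at 11.5, 16.03 and 68.5 CPM in saline and at 8.60, 13.1 and 19.1 CPM in secretome (-0.93 ± 0.322, adjusted p = 0.197). Smdt1, which encodes the EMRE subunit of the mitochondrial calcium uniporter, was at 27.5, 37.3 and 72.6 CPM and at 28.4, 33.9 and 43.5 CPM (-0.33 ± 0.145, adjusted p = 0.276). Selenon, a selenoprotein of the reticulum membrane, was at 3.82, 5.90 and 8.92 CPM and at 3.11, 4.41 and 6.42 CPM (-0.38 ± 0.169, adjusted p = 0.279). The groups overlapped for all 3, and without saline libraries 2 and 3 the differences were -0.27, -0.22 and -0.31, none with an unadjusted p under 0.05.

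By role, all 8 genes of calcium-activated signalling had a positive log2 fold change over all libraries (median 0.15) and 7 of 8 had within libraries 6 to 15 (median 0.10), with 2 at an unadjusted p under 0.05 in each. Of all genes, 44.1% and 47.9% had a positive log2 fold change in these comparisons and 15.7% and 9.95% an unadjusted p under 0.05, and the role was not tested against other genes. Its most abundant members per length were Camk2a and Camk2b, at 268 and 199 TPM in saline. Of the 4 voltage sensor partners, Cacna2d1 had a log2 fold change of 0.39 ± 0.134 (adjusted p = 0.195) and the other 3, Cacnb1, Cacng1 and Stac3, lay between -0.11 and -0.07. Of the 10 release channel regulators 5 were higher and 5 lower.

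The other roles varied in their medians. Of the 8 junction and T-tubule genes 5 were higher (median 0.01), and Bin1, which shapes T-tubules, and Trdn, which anchors calsequestrin, led in abundance with 761 and 685 TPM. The 5 genes of the reticulum lumen and counter-ion flow had a median of 0.02, led by Tmem38a and Hrc at 1386 and 728 TPM. The 8 genes of membrane excitability had a median of 0.09. Medians were 0.00 for the 3 genes of store-operated entry, 0.15 for the 4 of surface extrusion and 0.05 for the 6 of mitochondrial uptake. The 2 pump regulators that were tested, Arln and Mrln, had a median of -0.40. Of the 4 listed, Pln and Strit1 were too low to be tested, with at most 1.59 and 0.377 CPM, and Mrln, a micropeptide inhibitor of the fast pump, had a log2 fold change of 0.14 ± 0.157.

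**Figure D5:**
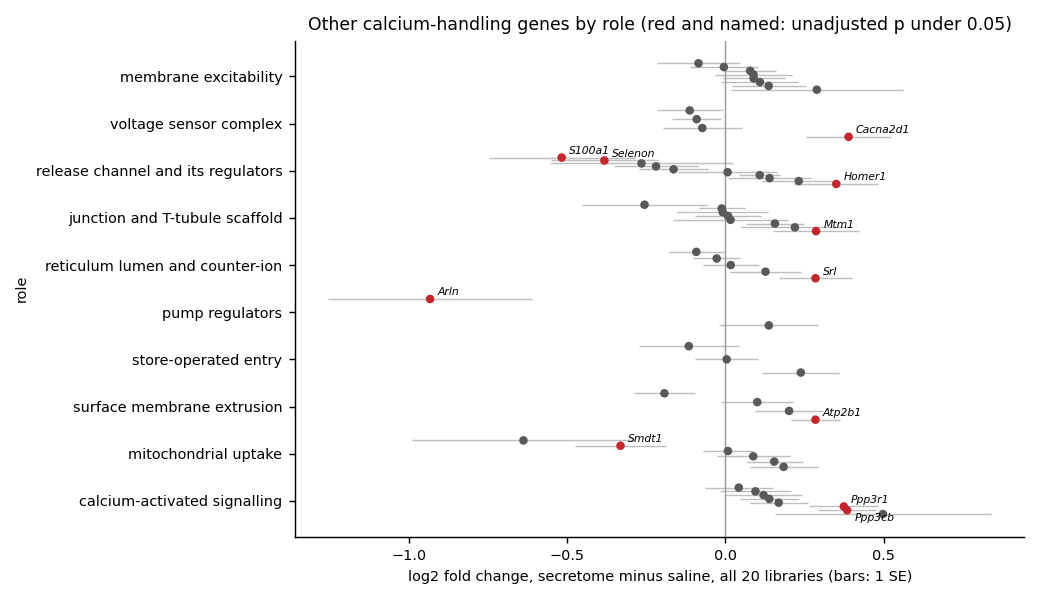
Log2 fold change of secretome against saline over all 20 libraries (x; bars are 1 SE) for the 58 further genes tested, by role (y), with genes at an unadjusted p under 0.05 in red and named. All 8 genes of calcium-activated signalling lay above 0, and Arln, at -0.93, lay farthest below it.

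Markers of other cell types were read beside these values. The summed level of 4 macrophage and leukocyte markers was at 26.0, 40.8 and 75.8 CPM in saline and at 15.4, 23.2 and 60.9 CPM in secretome, highest in library 3. Of these 4, Csf1r and Adgre1 had an unadjusted p under 0.05, both with lower values in secretome (edgeR adjusted p = 0.150 and 0.153). The same held for Acta2 and Tagln among 4 tested markers of smooth muscle and mural cells (adjusted p = 0.166 and 0.204). Of all genes tested, 9.21% had lower values at that unadjusted level. Of the 7 fast-fibre, 2 tested cardiac, 4 endothelial, 4 fibroblast, 3 adipocyte and 2 satellite cell markers, 0 had an edgeR unadjusted p under 0.05 over all 20 libraries. For libraries 6 to 15, Csf1r (p = 0.00126), Adgre1 (p = 0.00352), Ptprc (p = 0.0176) and Cidec (p = 0.0167) had lower and Lum (p = 0.00905) higher values in secretome by the same unadjusted test, and none passed the false discovery rate. Within that range 9.95% of all genes had an unadjusted p under 0.05. The part of these cell types in the values of the members was not tested.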

How the data were processed

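RNA of 20 quadriceps muscles, 10 saline and 10 secretome, was measured as counts. Per the labels, the authors prepared stranded libraries of total RNA and used cutadapt 1.16, STAR 2.7.9a, featureCounts 1.6.3 and DESeq2 1.34.0 on GRCm39. The deposited values are raw counts per gene, 1 column per muscle, all columns matched to a sample by its label. The members and gene lists were chosen with earlier results of these data known.

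Counts were filtered with filterByExpr, scaled by TMM and tested with edgeR 4.0.16 (robust quasi-likelihood F-test, treatment as the only term) in R 4.3.3, with Benjamini-Hochberg adjustment over all genes tested at a 5% false discovery rate. Dividing a log2 fold change by the root of its F gave the SE. The script was tested on simulated data. CPM are TMM-scaled. For correlations, log2 CPM took a prior count of 2. Gene names, lengths and GC content came from GENCODE M21, which is on another build, so no gene coordinates are given from it. Single values were compared by permutation (SciPy). The slow-fibre covariate, the omission of libraries 2 and 3 together and the contrast of libraries 16 to 20 with 1 to 5 are alternatives, all 3 chosen after seeing the data. Others were DESeq2 1.42.0, limma 3.58.1 (voom with quality weights), sva 3.50.0, RLE factors, no filter, Ttn left out, GC and length trends, library ranges as a term, a replicate block and each muscle left out in turn.

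Named were all members, the 3 pathway genes with the smallest unadjusted p in each direction, the 2 most abundant per length of roles discussed (for some roles not reported here), the 2 genes most like each member at a mean of at least 10 CPM, and the markers. Genes named beside a count of 5 or fewer, S100a1 and Cacna2d1 were chosen after their values were seen. The p-values measure the spread between these muscles, which over all 20 libraries includes the differences between library ranges. Counts limit the precision of genes near 1 CPM.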

Additional observations from a re-analysis of the deposited data

Results flagged for a closer look

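Atp2a2 in secretome library 18 (replicate 8) stood apart from the other 9 secretome muscles, at 7.93 on the log2 CPM scale against 6.71 for the next highest. The gap was 0.536 of the range of the group. The 10 genes and 4 ratios gave 28 groups of values, of which 1 was set apart in this way, while chance gives about 1.4. The summed slow-fibre markers were also highest in that library, at 436 CPM. Without this library the log2 fold change of Atp2a2 over all libraries was -0.59 (edgeR unadjusted p = 0.0196, adjusted p = 0.248), beside -0.25 with it.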

How the results depend on the processing

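No member passed the false discovery rate over all 20 libraries or within libraries 6 to 15 under any alternative, including each muscle left out in turn. The number of muscles limits the precision, and Sln and Casq2 rest on the fewest counts.

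With the 3 library ranges as a term, the treatment difference rests on libraries 6 to 15, since the other ranges hold 1 treatment each. This setting thus repeats the comparison within that range and is not a separate check. The log2 fold change turned to -0.0713 for Cacna1s, -0.10 for Ryr1, -0.0875 for Jph2, -0.26 for Casq2, -0.21 for Atp2a1 and 0.0646 for Pvalb. The pathway median turned to -0.0222, while Atp2a2 moved from -0.25 to -0.94 (edgeR unadjusted p = 0.0260). Casq1 turned to 0.0603 with 1 surrogate variable, 0.0207 with GC and length trends removed and 0.00304 without saline replicates 2 and 3, where the Jph1 to Jph2 ratio turned to -0.0357. Within libraries 6 to 15, Casq2 turned to 0.38 and Pvalb to -0.0710 with the slow-fibre covariate, and Casq2 to 0.44 with voom weights. The cause of the turns in settings other than the library ranges was not tested.

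Genes past the rate over all libraries numbered 216 with DESeq2, 3 with voom weights, 2 with GC and length trends removed or without saline replicates 2 and 3, and 0 with the library ranges, and in libraries 6 to 15, 37 with DESeq2 and 11 with no filter. DESeq2 called 2 pathway genes. The difference between the sets had 2 genes with no filter. The replicate block gave 0 genes. Same-numbered muscles had correlations of -0.240 to 0.221, with 2 of 10 over 0.1, so the numbers do not pair the muscles, and libraries 6 to 15 share no number across treatments.

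With 1 muscle left out, the counts ran from 0 to 15 (15 without saline replicate 5) and from 0 to 2 in libraries 6 to 15. Log2 fold changes that changed sign ran from -0.0470 to 0.304 for Casq2 and -0.0149 to 0.119 for Jph2 over all libraries. Within libraries 6 to 15 they ran from -0.217 to 0.0139 for Jph2, -0.206 to 0.00126 for Casq1, -0.472 to 0.0564 for Casq2, -0.771 to 0.369 for Sln and -0.0572 to 0.229 for Pvalb. There the Casq1 to Casq2 ratio ran from -0.38 to 0.26 and the Ryr1 to Cacna1s ratio from -0.0697 to 0.000795.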
